A study of Homo sapiens with 48 samples.

Results

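RNA-seq compared HEK293T cells 3 h after T-REX with cells of the light alone control at the same time, and every gene counted was kept, 14685 of 14685. HEK293T is a human embryonic kidney line. The comparison rests on 8 of the 48 libraries of the series, 4 labeled T-REX and 4 labeled as the control with light. In all groups, the cells had been transfected with NCBP1 fused to Halo, a protein tag that binds small-molecule probes covalently, so NCBP1 was overexpressed in T-REX and in each control. In the T-REX arm the photocaged probe was bound to Halo and light then released HNE (4-hydroxynonenal, a reactive product of lipid oxidation) beside NCBP1. The labels call the compared arm a control with light, whereas the Methods of the study list the probe as well as light for it, and what these cells received beside light was not tested. Further controls, probe alone and DMSO, supply the remaining 8 libraries of 3 h and enter the estimate of spread. The comparison asks which transcripts differed 3 h after HNE was released at NCBP1. The study describes the 4 repeats of each set as independent biological ones, while the labels only number them and do not say what was separate, and p-values measure the spread between these libraries.

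With NCBP2, NCBP1 forms the nuclear complex that holds the cap of new transcripts, and as its larger member it links them to splicing, 3′ end processing and export. HNE modifies cysteines and other nucleophilic residues of proteins. Cells answer protein and amino acid stress with a few transcription factors: XBP1, ATF6 and the CREB3 family act on genes of the endoplasmic reticulum (ER), and ATF4, the effector of the integrated stress response, acts on genes of amino acid synthesis, transport and tRNA charging. MondoA with its partner MLX drives TXNIP and ARRDC4, a pair of arrestin-like genes that respond to glucose and its phosphate.

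The 250 bases before the transcription start are shown for 5 of the genes described below. Each of them held a match to a motif known for the pathways named above. Other called genes were searched too but are not shown, among them CREB3L2, STC2 and SELENOS, which had no ER stress element. The sequences are from RefSeq (GRCh38.p14), which gave a promoter for 10 of the 12 genes called higher and 15 of the 17 called lower. Capitals mark a match. For XBP1 (chr22:28800570-28800819, minus strand) this is the ER stress element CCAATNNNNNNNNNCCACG, from 52 to 34 bases before the start. For ASNS (chr7:97872409-97872658, minus strand) and MTHFD1L (chr6:150866236-150866485, plus strand) it is TGATGNAA, the core of the C/EBP-ATF element that ATF4 can bind, at 68 to 61 and at 129 to 122 bases before the start. In TXNIP (chr1:145996580-145996829, minus strand) it is CACGAG, a variant E-box found 2 times, and in ARRDC4 (chr15:97960453-97960702, plus strand) the E-box CACGTG, from 210 to 205 bases before the start.
XBP1: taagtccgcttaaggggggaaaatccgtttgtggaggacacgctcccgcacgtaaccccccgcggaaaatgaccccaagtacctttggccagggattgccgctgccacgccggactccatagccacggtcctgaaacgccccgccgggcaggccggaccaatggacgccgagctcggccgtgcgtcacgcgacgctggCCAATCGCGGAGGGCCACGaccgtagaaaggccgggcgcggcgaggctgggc
ASNS: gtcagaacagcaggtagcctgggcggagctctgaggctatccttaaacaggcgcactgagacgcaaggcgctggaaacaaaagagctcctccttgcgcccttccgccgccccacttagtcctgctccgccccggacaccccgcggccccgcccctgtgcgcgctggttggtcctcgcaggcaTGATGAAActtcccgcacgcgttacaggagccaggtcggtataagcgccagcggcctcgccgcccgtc
MTHFD1L: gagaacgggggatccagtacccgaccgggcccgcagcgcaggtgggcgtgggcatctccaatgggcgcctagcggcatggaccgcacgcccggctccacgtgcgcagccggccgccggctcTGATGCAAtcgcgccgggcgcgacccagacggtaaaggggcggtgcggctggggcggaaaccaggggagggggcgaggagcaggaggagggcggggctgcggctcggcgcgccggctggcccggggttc
TXNIP: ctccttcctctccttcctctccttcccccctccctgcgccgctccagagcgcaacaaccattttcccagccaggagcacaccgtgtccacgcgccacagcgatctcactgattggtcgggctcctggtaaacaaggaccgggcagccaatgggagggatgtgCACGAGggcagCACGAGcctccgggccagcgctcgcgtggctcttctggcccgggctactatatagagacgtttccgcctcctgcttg
ARRDC4: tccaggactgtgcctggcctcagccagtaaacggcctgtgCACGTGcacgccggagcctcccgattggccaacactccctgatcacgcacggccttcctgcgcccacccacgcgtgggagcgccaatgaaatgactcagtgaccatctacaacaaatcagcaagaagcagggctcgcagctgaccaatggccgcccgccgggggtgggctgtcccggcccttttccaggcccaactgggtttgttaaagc
Both strands were searched over 250 bases before to 50 after the start. The ER stress element was in 0.0806% of all 27305 RefSeq promoters, in 0.134% of the 10443 of tested genes and in XBP1 alone among the called genes. TGATGNAA was in 3.67% of all promoters and in 1.61% of those of genes tested here, and among the called genes in ASNS and MTHFD1L. The UPR element TGACGTGG was in 0.795% of all promoters, in 1.02% of those of tested genes and in 0 of the 10 genes called higher. CACGTG was in 7.43% of all promoters, in 10% of those of tested genes and in 3 of the 10 higher and 2 of the 15 lower genes. CACGAG was in 6.79% of all promoters, in 8.57% of those of tested genes and, among called genes, in TXNIP. CCAAT alone was in 35.7% of all promoters, in 37.4% of those of tested genes and in 7 of the 10 higher and 7 of the 15 lower genes. GCGTG, the core of the element that the aryl hydrocarbon receptor binds, was in 36.3% of all promoters, in 51.7% of those of tested genes and in 8 of the 10 higher and 9 of the 15 lower genes. The CCAAT matches include the start of the ER stress element. A match is a string of letters, not a measured site.

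T-REX libraries held 23952455 to 28997821 counts each, and those of light alone 26979881 to 29787969. Expression is given in CPM, counts scaled to a common library total after edgeR's TMM factor. The T-REX libraries were farther apart than those of light alone, with a median SD of 0.123 against 0.0864 on the log2 CPM scale over 10017 genes with higher counts. Their deviations from the arm mean followed the GC content of transcripts, with Spearman correlations across 9994 genes of -0.70, -0.33, 0.61 and 0.33 for T-REX replicates 1 to 4, against values between -0.23 and 0.19 for light alone. Genes are not independent replicates, and these values describe the libraries. The log2 fold change of T-REX over light alone at 3 h hardly followed GC content (Spearman correlation 0.07 across 14556 genes). In the other comparisons used below the correlation was mostly larger. At 3 h it was 0.30 for T-REX against probe alone, 0.32 for T-REX against DMSO, 0.32 for light alone against DMSO and 0.22 for light alone against probe alone. For T-REX against light alone it was 0.22 at 6 h and -0.09 at 12 h. The part of GC content in the calls of these comparisons was not tested. Of 12 genes known for HEK293T cells 11 were in the table, with a summed level of 1041 to 1301 CPM in T-REX and 1208 to 1303 CPM in light alone, and of 18 genes of other cell types only COL1A1 was, at 2.09 to 4.29 CPM in the 8 libraries.

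Transcripts of the ER stress factors XBP1 and CREB3L2 and of the amino acid enzyme ASNS were higher in T-REX than in light alone, and those of the MondoA targets TXNIP and ARRDC4, of the ligand BMP4 and of the developmental factors POU3F2 and HOXD13 were lower. At an adjusted p of at most 0.05 (edgeR's quasi-likelihood test on the 16 libraries of 3 h, Benjamini-Hochberg adjustment over all genes), 29 genes differed, which is 0.197% of 14685. Of these, 12 were higher (0.0817%) and 17 lower (0.116%) in T-REX. The changes were small, with a median size of 0.34 and a range of 0.23 to 1.39 on the log2 scale. Without adjustment, 2174 genes had a p of at most 0.05 (14.8%). The 4 T-REX libraries lay wholly outside the range of the 4 light alone libraries for 1039 genes (7.08%), above it for 367 (2.5%) and below it for 672 (4.58%), and for 27 of the 29 called genes. As bulk RNA was measured, fewer cells of a type and less RNA per cell cannot be told apart.

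Among the sensors and factors of the unfolded protein response, XBP1 and CREB3L2 rose. XBP1 (ENSG00000100219) is spliced by IRE1 to give a factor for ER chaperones and secretion, and it stood at 106, 103, 108 and 99.8 CPM in T-REX replicates 1 to 4 against 79.6, 81.6, 78.4 and 73.5 CPM in light alone replicates 1 to 4. The groups did not overlap, and XBP1 was 1.33-fold higher (log2 fold change 0.41, standard error 0.053, adjusted p = 0.000661). These counts do not separate its spliced from its unspliced form. CREB3L2 (ENSG00000182158), an ER-anchored factor released by proteolysis that acts on secretory genes, stood at 232, 229, 224 and 223 CPM in T-REX and at 168, 164, 164 and 185 CPM in light alone. Every T-REX library was above every light alone library (log2 fold change 0.42, standard error 0.048, adjusted p = 0.00016). The other 8 of 10 members tested were not called: CREB3L4 had the highest value, 0.43 (standard error 0.144, adjusted p = 0.163), ATF6 had 0.05, MBTPS1 -0.05 and CREB3L1 -0.19.

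Of the ER export and quality control genes, SEC24D and SELENOS rose. SEC24D (ENSG00000150961), a cargo-binding subunit of the COPII coat, held 85.8, 90.0, 78.2 and 87.4 CPM in T-REX against 69.5, 67.7, 63.1 and 69.4 CPM in light alone (log2 fold change 0.34, standard error 0.057, adjusted p = 0.00776). It was the 1 gene called of 15 COPII members tested, whose median was 0.03; its paralogs SEC24A and SEC24B had values of -0.16 and -0.15 and were not called. SELENOS (ENSG00000131871), a selenoprotein of ER-associated degradation, held 35.3, 36.0, 34.7 and 32.8 CPM against 27.9, 28.1, 29.4 and 26.8 CPM (log2 fold change 0.31, standard error 0.061, adjusted p = 0.0301). For both genes the arms did not overlap. SELENOS was the 1 gene called of 20 members of ER-associated degradation and the translocon, of which 16 had values above 0 (median 0.09). The list median was 0.005 against probe alone and 0.08 against DMSO. SEC61B, a translocon subunit, had 0.41 (adjusted p = 0.0739), OS9 0.27 and HERPUD1 0.16 (adjusted p = 0.282).

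No ER chaperone or folding enzyme was called among 19 tested, although 18 of them had values above 0, with a median of 0.14 against 0.00063 for all genes. The highest were SDF2L1 at 0.90 (standard error 0.311, adjusted p = 0.177), a low gene with 1.77 to 4.03 CPM in T-REX and 1.03 to 2.18 CPM in light alone, and MANF at 0.38 (adjusted p = 0.0647), whose arms did not overlap. HSPA5, the main Hsp70 chaperone of the ER, falls outside the rule for named genes and was added after its values were seen. It stood at 299, 319, 364 and 303 CPM in T-REX and at 235, 281, 246 and 269 CPM in light alone (log2 fold change 0.32, adjusted p = 0.0713). The lowest member was ERO1A at -0.17. The median of the list over the light alone mean was between 0.09 and 0.31 in the 4 T-REX libraries and between -0.03 and 0.05 in the 4 light alone libraries, with the highest value in T-REX replicate 3. The probe alone libraries stood at 0.07 to 0.18 on the same scale, which overlaps the range of T-REX, and the median of the list against probe alone was 0.02.

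Among enzymes of amino acid and one-carbon synthesis, ASNS and MTHFD1L rose. ASNS (ENSG00000070669), which makes asparagine and is a known ATF4 target, stood at 12.8, 11.2, 12.4 and 13.97 CPM in T-REX against 8.39, 7.60, 7.89 and 6.53 CPM in light alone. It was 1.66-fold higher (log2 fold change 0.73, standard error 0.127, adjusted p = 0.0105), the highest fold of the 12 genes called higher. MTHFD1L (ENSG00000120254), a mitochondrial enzyme of formate production, stood at 85.2, 80.8, 81.3 and 78.2 CPM against 69.8, 68.9, 62.9 and 68.5 CPM (log2 fold change 0.27, standard error 0.050, adjusted p = 0.0171). In both genes every T-REX library was above every light alone library. Of 17 members tested 15 had values above 0 (median 0.18, with T-REX library medians of 0.10 to 0.23 and light alone library medians of -0.04 to 0.03). On the same scale the probe alone libraries stood at 0.06 to 0.13 and the DMSO libraries at -0.02 to 0.20, which overlaps T-REX. The list median was 0.11 against probe alone and 0.10 against DMSO. PCK2 had 0.42 (adjusted p = 0.119), PHGDH 0.34 (adjusted p = 0.0739), CTH 0.18 (adjusted p = 0.269), ALDH18A1 -0.03 and GOT1 -0.06.

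YARS1 (ENSG00000134684), which charges tyrosine tRNA, was the 1 gene called of 20 cytosolic aminoacyl-tRNA synthetases. It held 229.8, 227, 234 and 202 CPM in T-REX and 191, 170.4, 167 and 191 CPM in light alone (log2 fold change 0.31, standard error 0.056, adjusted p = 0.0152), without overlap. Of the 20 members 18 had values above 0 (median 0.06), among them AARS1 at 0.33 (adjusted p = 0.0667), FARSA at 0.28 and MARS1 at 0.14 (adjusted p = 0.202). VARS1 had a value of -0.09. For the synthetases as a list, the median was 0.01 against probe alone and -0.01 against DMSO. No amino acid carrier was called among 14 tested, of which 12 had values above 0 (median 0.12). SLC6A9 had 0.49 (adjusted p = 0.253) and SLC7A11, the cystine carrier, 0.36 (adjusted p = 0.16), while SLC38A2 had -0.14. For the carriers the median was 0.05 against probe alone and -0.005 against DMSO.

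None of the 17 regulators of the integrated stress response tested was called against light alone (median 0.11, 12 above 0). Against probe alone the list median was 0.19, and 2 members were called higher, beside 35 of all 14685 genes. With DMSO as the control it was 0.16, with 3 members called higher and 1 lower, beside 213 and 667 of all genes. The values that follow are again against light alone. CHAC1 had 0.62 (adjusted p = 0.301), JDP2 0.60 (adjusted p = 0.202), EIF2AK1 -0.11 and TRIB3 -0.12. STC2 (ENSG00000113739), a secreted glycoprotein known to rise with ER stress, was called: its T-REX libraries held 168, 169, 169 and 167 CPM and its light alone libraries 143, 140.3, 135 and 134 CPM. The arms were well apart although the change was 1.22-fold (log2 fold change 0.29, standard error 0.045, adjusted p = 0.00519).

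The remaining 4 genes called higher belong to none of these groups. SND1 (ENSG00000197157), a nuclease-domain protein of RNA regulation, stood at 134, 142, 137 and 132 CPM in T-REX against 115, 107, 100.2 and 111 CPM in light alone (log2 fold change 0.33, standard error 0.056, adjusted p = 0.00767). SND1-IT1 (ENSG00000279078), a non-coding gene on the same strand whose exons overlap exons of SND1 in GENCODE 29, stood at 19.0, 18.1, 11.7 and 15.2 CPM against 8.90, 9.50, 9.58 and 11.7 CPM, and its arms overlapped (log2 fold change 0.69, standard error 0.135, adjusted p = 0.0299). As they overlap on 1 strand, the split of reads between SND1 and SND1-IT1 is uncertain. PCGF3-AS1 (ENSG00000249592), antisense to the Polycomb gene PCGF3, stood at 15.7, 15.3, 15.6 and 12.8 CPM against 10.1, 9.50, 8.95 and 10.1 CPM (log2 fold change 0.62, standard error 0.095, adjusted p = 0.0041). PCGF3 itself had a value of -0.20 (adjusted p = 0.466). The kit marked strand, but whether the counting used it is not given in the sources used here. BICD1 (ENSG00000151746), an adaptor of dynein in vesicle transport, stood at 34.2, 30.4, 32.3 and 32.3 CPM against 25.8, 24.3, 22.9 and 27.9 CPM (log2 fold change 0.36, standard error 0.072, adjusted p = 0.0337).

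**Figure D1:**
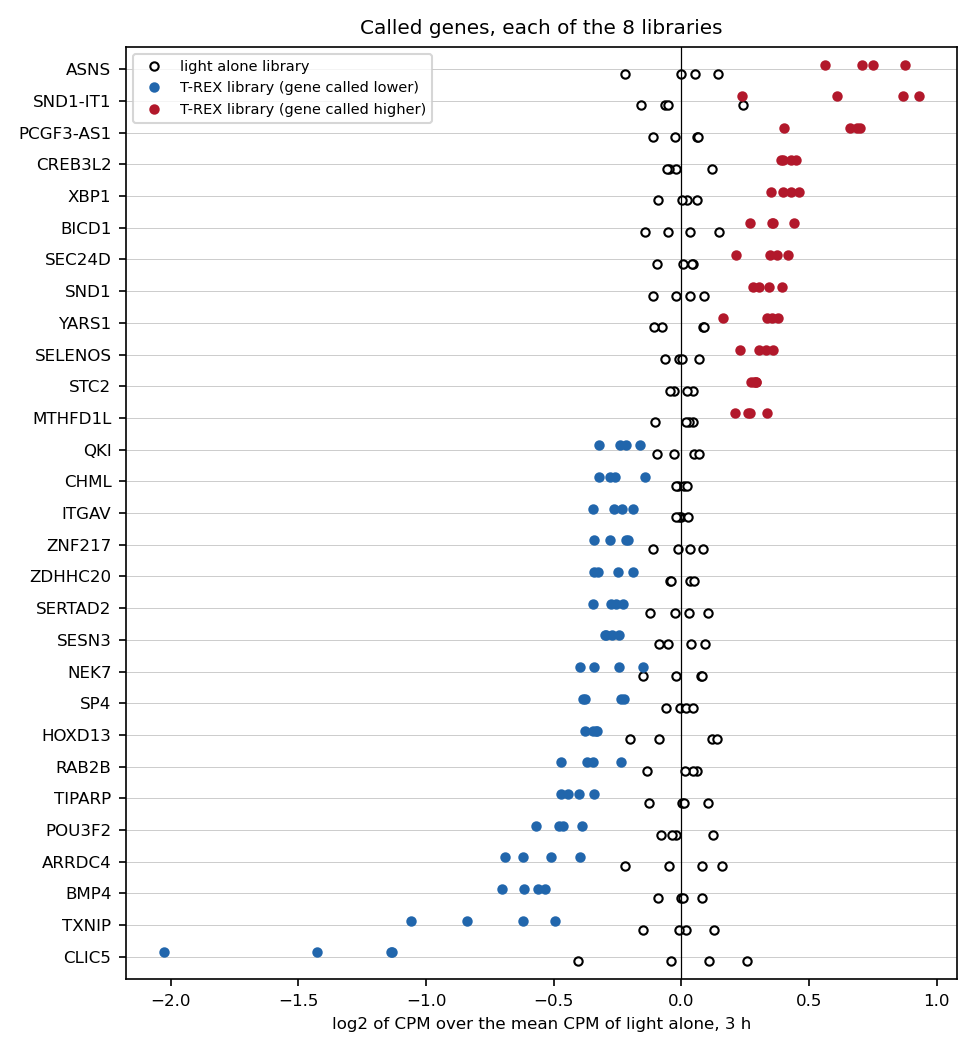
Each row is a called gene, and each point 1 of the 8 libraries as the log2 of its CPM over the mean CPM of light alone at 3 h. Filled points are T-REX (red for genes called higher, blue for genes called lower) and open points are light alone. SND1-IT1 and NEK7 are the 2 genes whose arms overlap.

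Among the genes of MondoA and glucose sensing, TXNIP and ARRDC4 fell. TXNIP (ENSG00000265972), an inhibitor of thioredoxin and of glucose uptake, stood at 31.3, 39.8, 36.4 and 26.8 CPM in T-REX and at 50.4, 56.7, 61.1 and 55.7 CPM in light alone. Its level was 0.60-fold that of light alone (log2 fold change -0.74, standard error 0.0995, adjusted p = 0.00208). ARRDC4 (ENSG00000140450), its arrestin relative, stood at 31.1, 36.2, 33.5 and 29.6 CPM against 40.9, 46.2, 50.5 and 53.3 CPM (log2 fold change -0.55, standard error 0.086, adjusted p = 0.00459). All T-REX libraries were below all light alone libraries for both. Of the 15 genes of MondoA and glucose sensing these were the 2 called, and the median of the list was -0.02. KLF10 had -0.27 (adjusted p = 0.058) without overlap, the carrier SLC2A1 -0.06, HK1 0.17 and MLX 0.19.

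POU3F2 and HOXD13 fell among transcription factors of development. POU3F2 (ENSG00000184486), a POU factor of neural cells, held 52.3, 55.7, 59.2 and 56.4 CPM in T-REX and 73.5, 76.6, 84.7 and 75.7 CPM in light alone. It had the lowest adjusted p beside CREB3L2 (log2 fold change -0.47, standard error 0.054, adjusted p = 0.00016) and no overlap. Of 22 developmental factors tested POU3F2 was the 1 called, 18 had values below 0 and the median was -0.09. POU3F1 and POU3F3 had -0.36 and -0.34 (adjusted p of 0.634 and 0.263), SIX5 and LHX1 both 0.14, and DACH1 -0.04 with 72.7 to 74.8 CPM in T-REX and 72.7 to 78.4 CPM in light alone. HOXD13 (ENSG00000128714) held 84.9, 85.3, 82.6 and 84.3 CPM against 101, 116, 118 and 93.2 CPM (log2 fold change -0.35, standard error 0.063, adjusted p = 0.0155). Of 35 HOX genes it was the 1 called; the median was 0.01, HOXA13 had -0.31 (adjusted p = 0.0667) with overlapping arms, HOXA6 -0.29, HOXB5 0.36 and the low gene HOXA4 0.59 (adjusted p = 0.263).

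BMP4 (ENSG00000125378), a secreted ligand of the BMP pathway, fell to 0.659-fold of light alone. It stood at 12.8, 11.4, 12.5 and 12.1 CPM in T-REX and at 18.5, 18.6, 19.6 and 17.4 CPM in light alone (log2 fold change -0.60, standard error 0.090, adjusted p = 0.00339), and its arms were far from overlap. It was the 1 gene called of 26 in TGF-beta and BMP signaling, of which 21 had values below 0. Their median was -0.12, with library medians between -0.14 and -0.09 in T-REX and between -0.04 and 0.03 in light alone. The inhibitory SMAD6 had -0.43 (adjusted p = 0.133), the pseudoreceptor BAMBI -0.31 (adjusted p = 0.346), TGFBR3 -0.11 and TGFB2 0.11.

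SP4, SERTAD2 and ZNF217, which also regulate transcription, fell. SP4 (ENSG00000105866), a GC-box factor, stood at 50.2, 50.6, 45.5 and 45.3 CPM against 58.9, 56.7, 59.8 and 61.1 CPM (log2 fold change -0.30, adjusted p = 0.0219). SERTAD2 (ENSG00000179833), a coregulator, stood at 97.0, 98.2, 92.2 and 100.2 CPM against 115, 119.7, 126 and 108 CPM (log2 fold change -0.28, adjusted p = 0.0155). ZNF217 (ENSG00000171940), a zinc-finger repressor, stood at 49.0, 46.8, 51.3 and 51.1 CPM against 63.0, 58.8, 60.7 and 55.0 CPM (log2 fold change -0.26, adjusted p = 0.049), and is the called gene nearest to the threshold. In each of them the T-REX libraries were the lower 4.

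TIPARP (ENSG00000163659), a mono-ADP-ribosyltransferase that restrains the aryl hydrocarbon receptor, stood at 75.7, 72.6, 70.4 and 69.1 CPM in T-REX and at 103, 96.0, 96.6 and 87.9 CPM in light alone (log2 fold change -0.41, standard error 0.067, adjusted p = 0.00604). SESN3 (ENSG00000149212), a sestrin that restrains mTORC1, stood at 157, 155, 154 and 160.3 CPM against 179, 195, 202 and 183 CPM (log2 fold change -0.28, standard error 0.048, adjusted p = 0.00987). It was the 1 gene called of the 23 genes listed here as p53 targets, whose median was -0.07. Whether p53 controls SESN3 in these cells was not tested. CLIC5 (ENSG00000112782), of the chloride intracellular channel family, was a low gene at 0.902, 1.10, 0.596 and 1.11 CPM against 2.62, 2.90, 2.36 and 1.83 CPM, and had the largest change in size among called genes (log2 fold change -1.39, standard error 0.228, adjusted p = 0.0065). CLIC5 held 1.39 to 1.98 CPM in probe alone and 1.36 to 1.72 CPM in DMSO, below its levels in most light alone libraries. Against these controls its log2 fold change was -0.83 and -0.75, and it was not called (adjusted p of 0.075 and 0.06, edgeR). Between T-REX and light alone, none of these 3 genes had overlapping arms.

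QKI (ENSG00000112531), an RNA-binding protein that regulates splicing, stood at 276, 266, 247 and 262 CPM in T-REX and at 303, 320.0, 324 and 289 CPM in light alone (log2 fold change -0.23, standard error 0.048, adjusted p = 0.0368). It was the 1 gene called of 29 SR, hnRNP and related splicing factors (median -0.04), had the smallest change in size of the called genes and did not overlap between arms. The SR protein SRSF2 had -0.23 (adjusted p = 0.124), PTBP2 -0.18, HNRNPDL 0.12 and HNRNPA1 0.17.

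The last 5 genes called lower act in membrane traffic, adhesion and inflammasome control. RAB2B (ENSG00000129472), a Golgi GTPase, stood at 49.7, 45.4, 46.2 and 42.3 CPM against 61.2, 60.5, 59.2 and 53.4 CPM (log2 fold change -0.35, adjusted p = 0.0163). CHML (ENSG00000203668), a Rab escort protein, stood at 220.2, 201, 203 and 195 CPM against 241, 239.5, 245 and 247 CPM (log2 fold change -0.25, adjusted p = 0.0329). ZDHHC20 (ENSG00000180776) is a palmitoyltransferase, ITGAV (ENSG00000138448) the alpha V integrin, and NEK7 (ENSG00000151414) a kinase that takes part in NLRP3 activation. ZDHHC20 stood at 177, 170.0, 159 and 161 CPM against 195, 206, 209 and 196 CPM (log2 fold change -0.27, adjusted p = 0.0155). ITGAV stood at 116, 110.2, 104 and 113 CPM against 132, 131, 135 and 130.3 CPM (log2 fold change -0.26, adjusted p = 0.0171). For NEK7 the values were 108.7, 95.1, 91.6 and 102 CPM against 127, 119, 128 and 108.6 CPM, with T-REX replicate 1 just above light alone replicate 4 (log2 fold change -0.28, adjusted p = 0.0426). In GENCODE 29, CHML overlaps OPN3 on the same strand, and RAB2B, YARS1 and SESN3 overlap genes of the opposite strand, none of which was called.

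The lists of electrophile, heat and oxidant defense held no called gene. The 24 NRF2 targets tested had a median of -0.04, from BLVRB at -0.39 and FTL at -0.24 to TXN at 0.24 and PIR at 0.27. The 14 genes of HNE metabolism had a median of -0.02, with GSTM3 at -0.15 and ALDH7A1 at 0.20 (adjusted p = 0.11). For the 21 heat shock genes the median was 0.00, with HSPB8 at -0.36 and BAG3 at 0.19. The 29 hypoxia genes had a median of -0.04 (STC1 -0.64, adjusted p = 0.338, BNIP3L -0.26, adjusted p = 0.0739, and PGK1 0.14), the 20 immediate early genes -0.01 (JUN 0.30, adjusted p = 0.673), the 17 kinases of the p38 and JNK cascade -0.03 (MAPK14 -0.15, MAP2K6 -0.14), the 24 Wnt genes -0.04 (LGR4 -0.14, LGR5 0.32), the 28 nuclear receptors -0.03 (VDR -0.30, NR3C2 -0.10, RARB 0.23), the 6 interferon genes 0.08 and the 13 cell death genes 0.04 (HRK 0.32, adjusted p = 0.11). The median of the hypoxia list at 3 h was -0.23 against probe alone and -0.18 against DMSO, farther from 0 than against light alone. In the NF-Y trimer NFYA had -0.21 with T-REX libraries of 56.2 to 57.5 CPM below light alone libraries of 63.1 to 69.3 CPM (adjusted p = 0.0713), NFYC -0.09 and NFYB -0.02.

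Among larger lists without a called gene, the ribosomal proteins stood highest in 1 library. The 85 cytosolic ribosomal protein genes had a median of 0.14, and 69 of them had values above 0; their library medians over the light alone mean were 0.03, 0.11, 0.41 and 0.04 in T-REX replicates 1 to 4 and -0.04 to 0.02 in light alone, so T-REX replicate 3 stood highest. Against probe alone the median of these genes was -0.06. The 41 replication-dependent histone genes had a median of 0.11, and their library medians were -0.73, -0.38, 0.69 and 0.34 in T-REX and -0.60, 0.45, 0.33 and -0.38 in light alone. In each of the 8 libraries the histone median had the same sign as the correlation with GC content given above, and the part of GC content in these lists was not tested. The 20 sterol synthesis genes had a median of 0.12 with 17 above 0 (MVD 0.53, adjusted p = 0.457, and SC5D -0.18), and their library medians were 0.04 to 0.16 in T-REX and -0.06 to 0.03 in light alone. In probe alone they were 0.15 to 0.32, and the median of T-REX against probe alone was -0.17, of the opposite sign. The median was 0.02 for the 16 mitochondrial genes and 0.04 for the 22 snoRNA host genes. By gene type in GENCODE 29, the median was -0.01 for 11874 protein-coding genes, 0.06 for 711 antisense genes, 0.07 for 570 lincRNAs and 0.17 for 295 processed pseudogenes, whose reads may come from their parent genes.

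**Figure D2:**
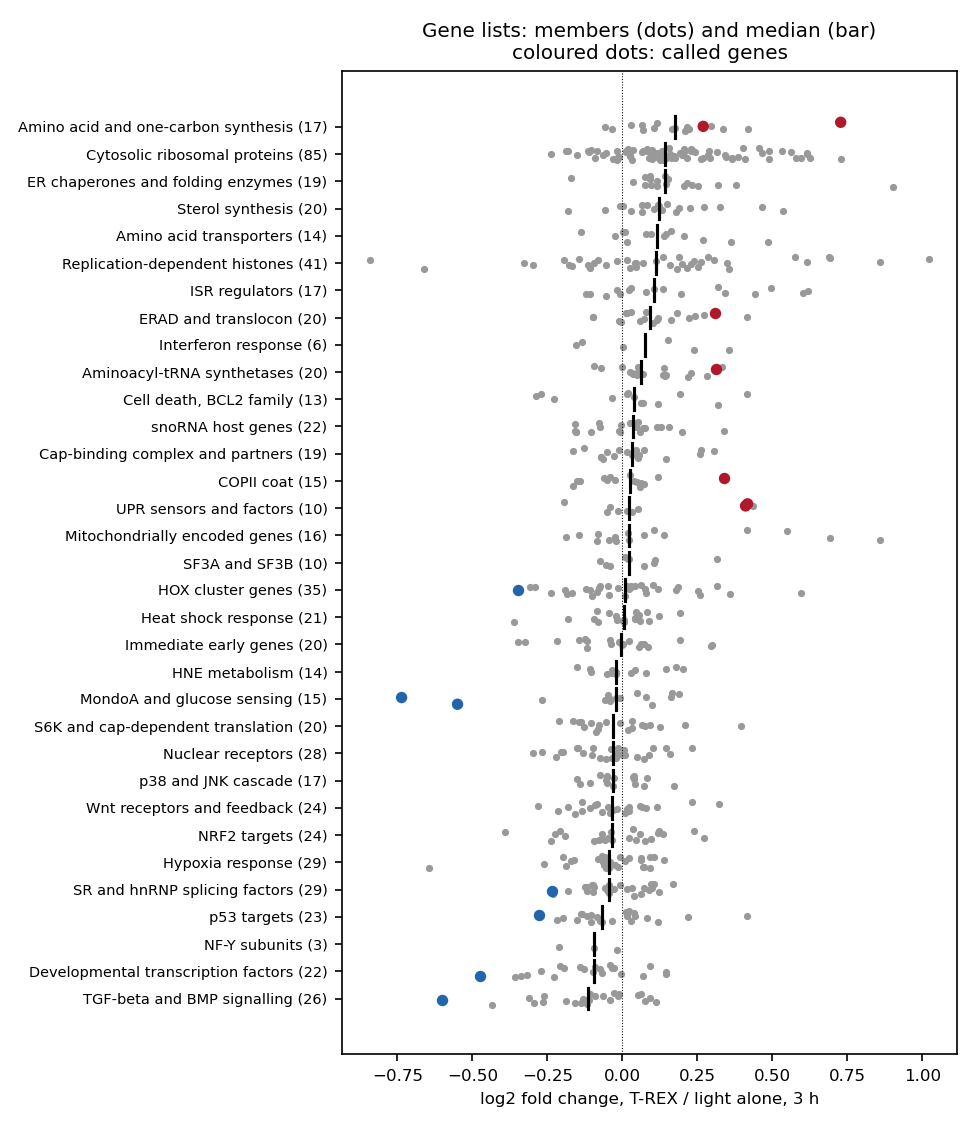
Each row is a gene list with the number of members tested, each grey point a member's log2 fold change of T-REX over light alone at 3 h, and the bar the median. Red and blue points are members called higher and lower; no list holds more than 2 of them.

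The transcripts of NCBP1, whose protein was the target, and of its partners were not called at 3 h against light alone. NCBP1 stood at 91280.1, 75022, 78769.5 and 55428 CPM in T-REX and at 69679.9, 58598, 59988 and 55029.6 CPM in light alone, and the arms overlapped (log2 fold change 0.30, standard error 0.124, adjusted p = 0.262). The counts do not separate the plasmid from the endogenous gene, so they do not say what the endogenous gene did. NCBP1 was called higher in T-REX at 6 h against light alone, at 0.80 (adjusted p = 0.0214), and at 3 h with DMSO as the control, at 0.50 (adjusted p = 0.029, edgeR). It was not called at 12 h, where its value was 0.51 (adjusted p = 0.0678), nor at 3 h with probe alone as the control, at 0.25 (adjusted p = 0.308). The part of the NCBP1 level in the other results was not tested. The small cap-binding subunit NCBP2 held 33.5 to 37.3 CPM in T-REX and 33.1 to 34.6 CPM in light alone (0.05). Of the 19 genes of the cap-binding complex and partners the median was 0.03, with THOC7 at 0.26 (adjusted p = 0.158), THOC3 at -0.13 and THOC6 at -0.16. RPS6KB1, which encodes S6K1, had 148 to 171 CPM in T-REX and 152 to 181 CPM in light alone (-0.05, adjusted p = 0.76); these gene counts do not separate its splice forms. Among 20 genes of S6K and cap-dependent translation the median was -0.03 (EIF4EBP1 0.39, EIF4B 0.21, EIF4E -0.17, and POLDIP3, the S6K1 partner SKAR, -0.21 with adjusted p = 0.11). SF3A1 had 0.02, and in the 10 subunits of SF3A and SF3B the median was 0.02 (SF3B2 0.31, adjusted p = 0.129).

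Of the other genes that the study marks for this comparison or names for its RNA-seq, none was called. SNRPD3, a core protein of spliceosomal snRNPs, and SLITRK5 had values of -0.18 (adjusted p = 0.0752) and -0.23 (adjusted p = 0.0667) without overlap. The non-coding TINCR had 0.62 (adjusted p = 0.0839), with 5.59 to 7.97 CPM in T-REX above 3.49 to 4.96 CPM in light alone. KCTD12 had -0.23, CXCR4 -0.50 (adjusted p = 0.124), COLQ 0.30, MYBL2 0.20, EGLN3 -0.19, IGFBP5 -0.10, IDH1 -0.08 and BNIP3 -0.01, all with overlapping arms. As the study chose these genes on these samples, their values are not independent evidence of a direction. Just inside the threshold stood CHML, BICD1, QKI, NEK7 and ZNF217, with an adjusted p between 0.0329 and 0.049. Just outside stood TOB1 (-0.31), AMD1 (-0.25), E2F8 (-0.25), UBQLN2 (-0.25) and MED26 (-0.45), all lower in T-REX and without overlap, with an adjusted p between 0.0515 and 0.0567.

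The same 4 T-REX libraries were also set against the other controls, so the values share them and are given side by side. Against probe alone 154 genes were called (1.05%) and against DMSO 880 (5.99%), while light alone differed from DMSO in 1 gene (RARB, 0.00681%) and from probe alone in 34 (0.232%), with edgeR's quasi-likelihood test. In the order light alone, probe alone and DMSO as the control, the log2 fold change of TXNIP was -0.74, -0.70 and -0.61. POU3F2 gave -0.47, -0.46 and -0.64, ASNS 0.73, 0.74 and 0.82, XBP1 0.41, 0.30 and 0.34, and SESN3 -0.28, -0.27 and -0.35. Other genes had smaller values against probe alone. BMP4 gave -0.60, -0.26 (adjusted p = 0.123) and -0.66, TIPARP -0.41, -0.13 (adjusted p = 0.305) and -0.37, and SEC24D 0.34, 0.10 (adjusted p = 0.369) and 0.32. Those nearest to 0 included SND1 with 0.33, 0.04 and 0.20, CREB3L2 with 0.42, 0.12 and 0.33, ITGAV with -0.26, -0.04 and -0.14, and ZNF217 with -0.26, -0.02 and -0.13. CREB3L2 and SND1 were among the genes called between light alone and probe alone, both lower in light alone (log2 fold changes of -0.30 and -0.29, adjusted p of 0.01 and 0.0339). CREB3L2 held 194 to 222 CPM in the probe alone libraries, against 223 to 232 CPM in T-REX and 164 to 185 CPM in light alone. BICD1 gave 0.36, 0.09 and 0.07.

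The same contrast 6 and 12 h after the reaction used other libraries. At 6 h, 32 genes were called (0.218%) and at 12 h 189 (1.29%). Of the 29 genes called at 3 h, 7 were also called at 6 h, namely POU3F2, CREB3L2, XBP1, TXNIP, ARRDC4, TIPARP and SEC24D, and these 7 and BMP4, SND1, YARS1 and MTHFD1L at 12 h. All 29 had the same sign at 6 h as at 3 h, against 9569 of all 14685 genes, and 26 had it at 12 h, against 8937 of all genes. TXNIP stood at -0.74, -0.88 and -0.63 at 3, 6 and 12 h, ARRDC4 at -0.55, -0.64 and -0.63, and POU3F2 at -0.47, -0.55 and -0.38. XBP1 gave 0.41, 0.31 and 0.43, CREB3L2 0.42, 0.39 and 0.25, and ASNS 0.73, 0.43 and 0.58, where the last 2 values of ASNS were not called (adjusted p of 0.243 and 0.0665). STC2, ITGAV and CLIC5 had the opposite sign at 12 h, from 0.29, -0.26 and -1.39 at 3 h to -0.12, 0.06 and 0.04.

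Whether an effect differed from that at 3 h was tested with an interaction term over all 48 libraries. By edgeR's quasi-likelihood test no gene passed at 6 h, with TMM or with RLE factors (671 without adjustment at 0.05), and 3 passed at 12 h (0.0204%), all lower. For STC2 the difference was -0.41 (standard error 0.083, adjusted p = 0.0496). P4HA1, a collagen prolyl hydroxylase of the hypoxia list, and TMEM45A were not called at 3 h, and TMEM45A was named after its values were seen. P4HA1 went from 0.10 at 3 h to -0.56 at 12 h and TMEM45A from 0.12 to -0.57, with differences of -0.67 and -0.69 (adjusted p = 0.0421 for both). Without 1 library the count ran from 0 to 13 and was 0 in 11 of 16 fits. It was 0 without any one of the light alone libraries of 3 h, without T-REX replicate 2 or 3 of 3 h, without T-REX replicate 1, 2 or 4 of 12 h and without light alone replicate 2 or 3 of 12 h, 1 without light alone replicate 4 of 12 h, 5 without T-REX replicate 4 of 3 h, 12 without T-REX replicate 1 of 3 h and 13 without T-REX replicate 3 of 12 h. Of the 29 hypoxia genes tested, 0 were called against light alone at 3 h, 0 at 6 h and 16 at 12 h (all lower), with medians of -0.04, -0.22 and -0.47. For the T-REX libraries of 3 h, 5 of these genes were called lower against probe alone and 8 against DMSO. Over all 14685 genes 119 and 667 were called lower there. Library medians of the list over the light alone mean at 3 h were -0.13 to 0.09 in T-REX and -0.05 to 0.04 in light alone. They were 0.08 to 0.23 in probe alone and 0.08 to 0.19 in DMSO. Among the 17 amino acid and one-carbon enzymes 2, 0 and 5 were called higher (medians 0.18, 0.21 and 0.29), and among the 14 amino acid carriers 0, 3 and 6 (medians 0.12, 0.19 and 0.27). Over all 14685 genes, 12, 18 and 73 were called higher at 3, 6 and 12 h, and 17, 14 and 116 lower. The mean correlation of a T-REX library with the others of its arm was 0.979 to 0.987 at 3 h and 0.993 to 0.994 at 12 h. Call counts at different times therefore do not rest on equal spread.

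**Figure D3:**
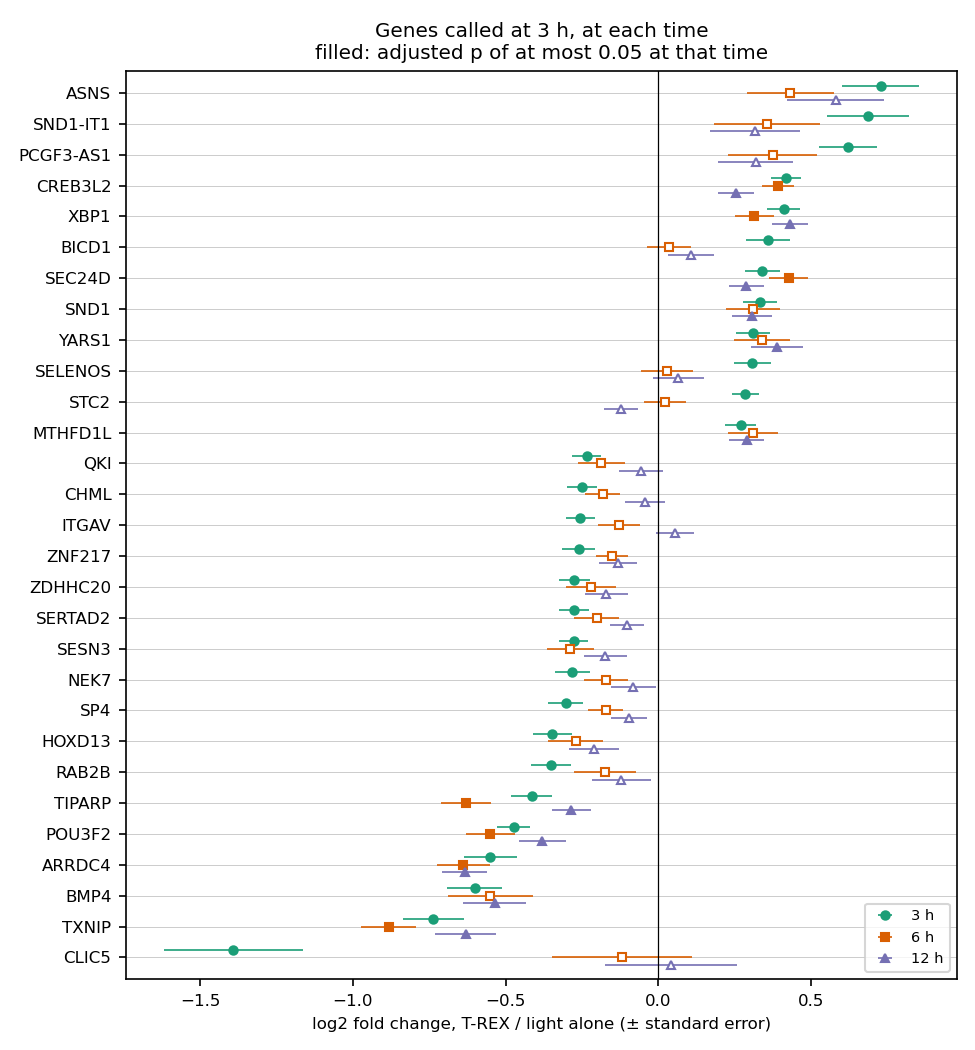
Rows are the 29 genes called at 3 h, and points their log2 fold change of T-REX over light alone at 3 h (circles), 6 h (squares) and 12 h (triangles), with standard errors. Filled symbols have an adjusted p of at most 0.05 at that time; 7 are filled at 6 h and 11 at 12 h.

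The number of calls depended on which libraries entered. Without 1 of the 8 libraries it ran, with the test above, from 9 (without light alone replicate 3) to 119 (without T-REX replicate 3). It was 10 without light alone replicate 2, 12 without T-REX replicate 2, 77 without T-REX replicate 1 and 82 without light alone replicate 4. The direction moved as well: 12 of 29 genes were higher with all libraries, 76 of 119 without T-REX replicate 3, 16 of 77 without T-REX replicate 1 and 24 of 82 without light alone replicate 4. In all 8 of these fits, 9 genes were called: POU3F2, CREB3L2, XBP1, TXNIP, BMP4, ARRDC4, TIPARP, PCGF3-AS1 and CLIC5. The call of ASNS ended without light alone replicate 2 or 3, and that of HOXD13 without either of these or T-REX replicate 2. ZNF217, BICD1 and SND1-IT1 were called in 2 of the 8, and QKI, NEK7, CHML, RAB2B and SELENOS in 3. When only the 8 libraries compared gave the spread, CREB3L2, POU3F2 and XBP1 were the 3 genes called. DESeq2 left PCGF3-AS1, CLIC5, ASNS and SND1-IT1 uncalled. It gave an adjusted p to 8990 of the 14685 genes, and a gene without one counts as not called.

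**Figure D4:**
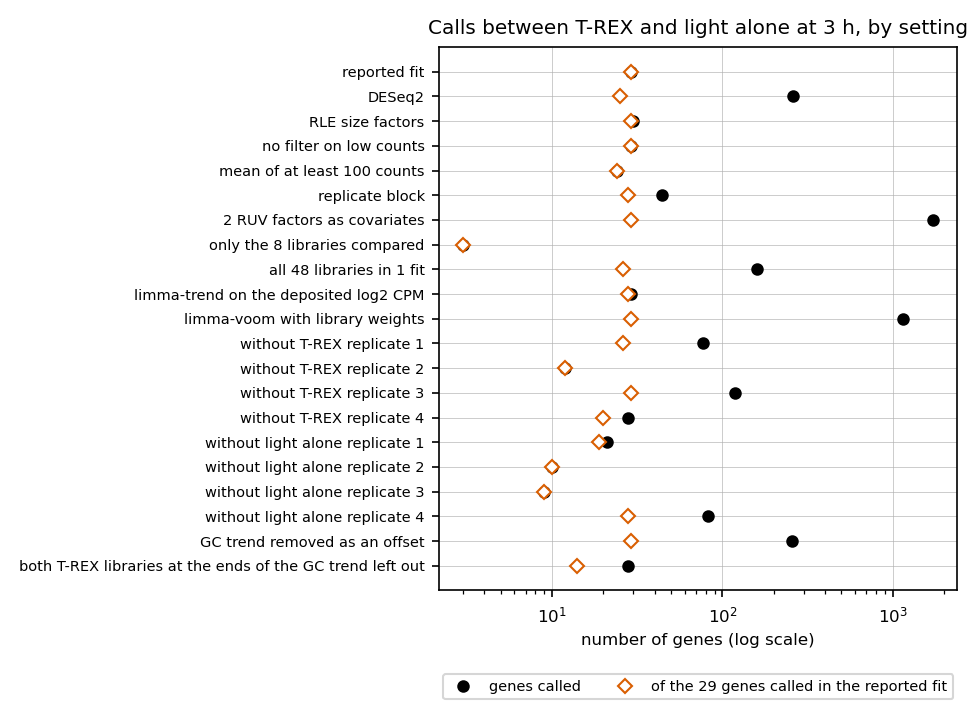
Each row is a setting of the comparison at 3 h, with the number of genes called (black, log scale) and how many of the 29 genes of the reported fit are among them (orange diamonds). Calls run from 3 with only the 8 libraries compared to 1733 with the RUV factors as covariates.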

How the data were processed

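RNA from 16 libraries of 3 h (4 each of DMSO, probe alone, light alone and T-REX) and from the corresponding libraries of 6 and 12 h was analysed. The authors depleted ribosomal RNA, made stranded libraries and sequenced them on an Illumina NovaSeq, with demultiplexing by bcl2fastq per the labels. The authors deposited counts per gene that were not normalized, the same counts as log2 CPM, and a score per library for each of 2 factors of unwanted variation (RUV), whose method is not stated. For RNA-seq the study names TopHat, Cufflinks and cutadapt in its reporting summary, but the tool that made the deposited counts and the genome build are not given in the sources used here, so gene positions are not given except for RefSeq promoters. GENCODE 29 held 14556 of the 14685 identifiers. The comparison of T-REX with light alone was fitted to the counts in R 4.3.3 with edgeR 4.0.16 (TMM, filterByExpr, which removed 0 genes, and robust quasi-likelihood) on all 16 libraries of 3 h, with limma 3.58.1 and DESeq2 1.42.0 as alternatives. Genes with a Benjamini-Hochberg adjusted p of at most 0.05 were called, and an adjusted p that DESeq2 left out stayed missing. The 8 libraries compared held 23952455 to 29787969 counts. The fit was run on simulated counts in which each gene had the same spread in all arms and no trend on GC content. The simulation therefore does not cover the wider spread and the GC trend of the T-REX libraries. The standard error is the log2 fold change over the root of the F statistic.

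Named are the called genes, genes the study names, the 2 highest and 2 lowest of each list, and 5 genes on either side of the threshold. Not all of them are printed. The genes, lists and tests were chosen with earlier results of these data known. Motifs were chosen from background knowledge. The alternatives were DESeq2, RLE factors, the RUV factors as covariates, filters on low counts, a block for the replicate number, other sets of libraries, limma-trend, limma-voom and leaving out each library. Removing the trend on GC content and leaving out T-REX replicates 1 and 3 together were added after the data were seen. Splicing, proteins and the deposited log2 CPM of 6 and 12 h, and the log2 values from which the authors had removed the RUV factors, were not analysed here.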

Additional observations from a re-analysis of the deposited data

Results flagged for a closer look

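Groups of 4 libraries were checked for a library far from the others in the called genes, in NCBP1, NCBP2, RPS6KB1 and SF3A1 and in the total counts, 68 groups in all, of which chance flags about 1 in 20. T-REX replicate 4 of PCGF3-AS1 was far below the others, at 12.8 CPM against 15.3 to 15.7 CPM in the other 3 T-REX libraries, and stayed above every light alone library.

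For 3 genes the effect against light alone differed between 3 and 12 h by the interaction test. The difference was -0.41 for STC2, which is called at 3 h, -0.67 for P4HA1 and -0.69 for TMEM45A, both of which are called lower at 12 h. All 3 are near the threshold, and in the fits without 1 of the 16 libraries the count ran from 0 to 13. The cause of the differences was not tested.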

How the results depend on the processing

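The 29 calls between T-REX and light alone at 3 h became 260 with DESeq2, which called 25 of the 29. DESeq2 gave an adjusted p to 8990 genes, and those without one could not be called. The count was 1733 with the RUV factors, 1156 with limma-voom and library weights and 159 in a fit of all 48 libraries. It was 255 with the trend on GC content removed (98 higher and 157 lower) and 3 in a fit of only the 8 libraries compared. RLE factors, a mean of at least 100 counts, limma-trend on the deposited log2 CPM and leaving out T-REX replicates 1 and 3 together gave counts of 24 to 30. The last of these shared 14 of its 28 genes with the 29. As the filter removed 0 genes, the fit with no filter is the reported fit and could not differ from it. Voom's weight was 0.277 for T-REX replicate 3 and 2.89 for T-REX replicate 2. None of the called genes reversed its sign in any setting. Over fits without 1 library the count ran from 9 to 119.

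The labels do not say what libraries with the same replicate number share. At 3 h, same-numbered T-REX and light alone libraries deviated from their arm means with correlations of 0.58, -0.62, 0.45 and -0.64. The correlations were -0.05, 0.24, 0.22 and 0.44 at 6 h and between -0.09 and 0.14 at 12 h. With the replicate number as a block, 44 genes were called at 3 h and 50 (against 32) at 6 h, and 185 (against 189) at 12 h.

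At 6 h the count was 1202 with the RUV factors, 9 with only the 8 libraries and 14 to 190 without 1 library. At 12 h it was 1266, 1127 and 94 to 150. The interaction at 6 h stayed at 0, and that at 12 h ran from 0 to 13. Against probe alone at 3 h the 154 calls became 3 with only the 8 libraries and ran from 18 to 535 without 1 library, and the 880 against DMSO became 187 and ran from 295 to 1137. Light alone against DMSO ran from 0 to 2, and against probe alone from 1 to 37, with 156 in the fit of only those 8 libraries. The cause of these changes was not tested. Genes below about 1 CPM, such as CLIC5 in T-REX, rest on few counts.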
